A study of Mus musculus with 24 samples.

Results

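The question here was which genes of N1E-115 cells answered a change of culture medium differently when the cells carried the TO fusion protein than when they were untransfected. N1E-115 is a mouse neuroblastoma line that serves as a model of neurons. The value studied for each gene was the medium response of TO cells less that of untransfected (WT) cells, where a medium response is the log2 level in differentiation medium less that in proliferation medium. It was read from 16 of the 24 samples of the study, 4 in each of 4 groups picked by sample title: TO-d and TO-p, then WT-d and WT-p, with d for differentiation and p for proliferation medium. TO cells were transfected with a fusion of transcobalamin, the plasma carrier of cobalamin (vitamin B12), and oleosin, the protein that coats the oil bodies of plant seeds. The labels describe TO as the N-terminal fusion, with high affinity for cobalamin, and OT, carried by the other 8 samples, as the C-terminal one with no detectable binding. Differentiation medium held 2.5% serum and 1.25% DMSO, and proliferation medium 10% serum. All groups were the same line in DMEM with the same glucose, and serum and DMSO changed together, as did the replating of differentiated cells, so their parts in a response cannot be told apart. The labels speak of biological replicates without giving the number of cultures behind them or of clones for a construct, and a p-value here covers no more than the spread between the samples at hand.

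Cobalamin serves methionine synthase and methylmalonyl-CoA mutase. Methionine synthase, in the cytosol, passes a methyl group from folate to homocysteine, which ties cobalamin to thymidylate synthesis and to S-adenosylmethionine, the donor for methylation of RNA-binding proteins, histones and DNA. The mutase works in mitochondria on the breakdown of odd-chain fatty acids and some amino acids. N1E-115 cells that are moved to low serum with DMSO normally leave the cell cycle, extend neurites and build up neuronal proteins, so a gene of the cell cycle normally falls in this medium and a gene of the secretory or neuronal programme normally rises.

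Levels are normalized log2 intensities of 1 probe per gene, on 12 Agilent 2-colour arrays on 3 slides. In each sample 54.3% to 65.9% of spots exceeded background clearly, and no spot was saturated. A few samples stood apart and touch the results. The TO-p group held replicate 4, whose root mean square deviation from the fitted group and dye values was 0.386 log2 units, against 0.174 to 0.197 in the other TO-p samples. The WT-p group split, with a correlation of deviations of 0.157 between replicates 1 and 3 and of 0.357 between replicates 2 and 4, and of -0.708 to -0.5 across these pairs. Deviations from a group's own mean tend to correlate negatively. In TO-d, replicates 2 and 3, which share an array, had 0.235, and their correlations with replicates 1 and 4 were -0.606 to -0.443. The root mean square deviations of the WT-p samples were 0.139 to 0.21. In each of the 4 groups a pair of samples carries the same number in its description label (TO-d 1 and 4, TO-p 2 and 3, WT-d 2 and 4, WT-p 1 and 3), so a group of 4 may hold 3 distinct RNAs, which the labels do not settle. With each such pair averaged, 1546 genes were called higher and 1595 lower, and 3046 of the 4798 calls reported below stood. Every gene named below with a value has its value without WT-p replicates 1 and 3 computed too, and a call is described as kept when it stood with the same direction in that fit. The 14 neuroblastoma markers, which include Hand2 and Dbh, were all well above background in all 16 samples. Of 14 glia markers 6 or 7 were above background in all samples of a group, of 13 blood and endothelium markers on the array 3 to 5, and of 14 fibroblast and smooth muscle markers 4 to 6. The summed intensity of the glia list was 4050 to 4450 in TO-d and 3490 to 4510 in TO-p, against 5720 to 6020 in WT-d and 3270 to 3820 in WT-p, while Slc1a3, Aldh1l1 and Olig1 were not above background in any of these samples. That of the fibroblast list was 7980 to 8480 in TO-d and 8870 to 11100 in TO-p, against 6550 to 7910 in WT-d and 9300 to 9940 in WT-p, with Lum, Fap, Postn and Col6a3 not above background in any. The blood list summed to 2080 to 2200 in TO-d and 1920 to 2450 in TO-p, against 1810 to 2110 in WT-d and 1550 to 1620 in WT-p, with Ptprc, Itgam, Cdh5 and Tie1 not above background. The part of these markers in the results was not tested.

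The medium response differed between TO and WT cells in 4798 of 16240 genes tested (29.5%), at an adjusted p under 0.05 by limma. It was higher in TO for 2339 genes (14.4%) and lower for 2459 (15.1%), and the difference exceeded 2-fold for 272 and 373 of them (3.97% of all genes). Without WT-p replicates 1 and 3 the calls of 1235 genes with a higher (7.6%) and 1250 with a lower response (7.7%) were kept, 15.3% of all genes, and none changed sign. For most of these genes the response was called in WT alone, or in both lines with the larger response in WT. Here and below, a response in TO or WT alone means that the response of the other line was not called, which does not show that it was absent. The median size of a response was 0.212 log2 units in TO and 0.365 in WT. These forms and sizes include TO-p replicate 4, which stood apart from its group, and were not computed without it. Among genes with a higher response in TO, 1123 (48.0%) had a called response in WT alone, 687 (29.4%) responded the same way in both lines with the larger response in WT, 295 responded in TO alone, and 55 responded more in TO. The corresponding counts among genes with a lower response were 1321 (53.7%), 702 (28.5%), 229 and 41. Another 256 genes (1.58% of all) had called responses of opposite sign, 136 of them up in TO and down in WT, and 237 of these 256 were kept. The remaining 89 had no called response in either line.

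**Figure D1:**
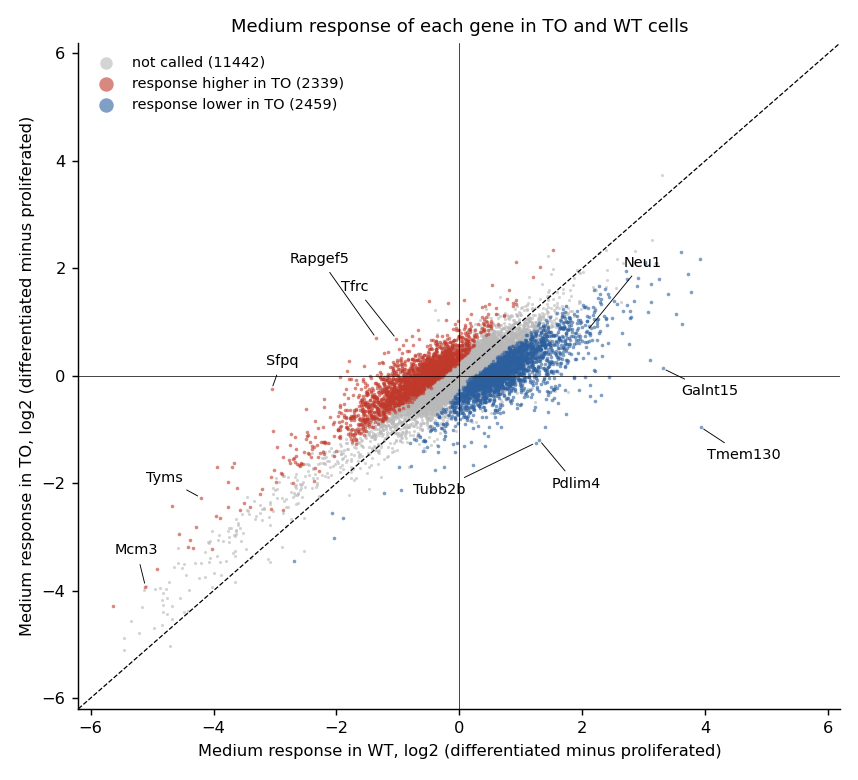
Medium response of each of the 16240 genes, in TO cells on the vertical axis and in WT cells on the horizontal axis, both as log2 differences. Red points are the 2339 genes whose response was higher in TO, blue points the 2459 whose response was lower, grey points the rest, and the dashed line marks equal responses. The cloud is flatter than that line, with TO-p replicate 4 included in the TO responses.

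The number and the balance of calls moved with the scaling between arrays. When channels were scaled by loess within arrays alone, 1109 genes were called higher and 612 lower, so that 64.4% of the calls were upward, against 48.7% with scaling between arrays. Only 1610 of the 4798 calls were kept with loess alone, the fewest of all the other fits. Where a gene had several probes, they did not always move together: with the median over a gene's probes in place of its brightest probe, 3799 of the 4798 calls were kept and 229 had the other sign. Within slide 1, which held 1 or more samples of all 4 groups, 99.8% of the called genes had the same sign, and within slide 3, with 1 sample of each group, 97.0% did. These are the samples that made the calls, and slide 2 held no WT-d sample. Of 121 called genes named with values, 92 kept call and direction in all 31 other fits, and Slc7a11 and Tmem130 in the 30 that held them. Apart from a few fixed genes such as Tcn2, they were chosen for a large difference and a call kept without WT-p replicates 1 and 3. That fit is among the 31, so their stability was partly set by the choice and does not speak for all 4798 calls. With the median over probes the difference of 32 of the 121 moved by over 1.5 times, and these values stand beside the genes as the probe median. Calls that did not stand with the median over probes were those of Mmut, Ncapd2, Derl1, Flvcr1, Acly, Igbp1, Plxna4, Pde4dip, Vegfa, Pcsk2 and Ctsb. Those that did not stand with loess alone were Tcn2, Mmachc, Hcfc1, Pola1, Ncapd2, Gclm, Hmox1, Acly, Ppp2ca, Timp1, Vim, Isg15, Ifih1, Rtp4, Fos, Prr9 and H1f5.

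Among genes of cobalamin uptake and handling, 4 of 18 had a higher response in TO, 3 of them kept, and 3 a lower one, none of them kept. Those kept were Mmut and Hcfc1, described below, and Prdx1 (difference 0.48), a peroxiredoxin, which is an antioxidant enzyme rather than a carrier or processor of cobalamin. The share of the list called was 38.9%, against 29.5% of all genes. The median difference of the list was -0.03, and 0.14 without WT-p replicates 1 and 3. Tcn2, which encodes transcobalamin itself, lay at 9.60, 9.68, 9.81 and 9.52 in TO-d and at 9.06, 9.18, 9.12 and 9.16 in TO-p, against 9.17, 9.12, 8.95 and 8.87 in WT-d and 7.92, 8.21, 7.91 and 8.30 in WT-p. All TO samples were above all WT samples of the same medium, and both lines were higher in differentiation medium. The rise was 0.47 in TO and 0.94 in WT, a difference of -0.47 ± 0.13 (SE, adjusted p = 0.0114), which was lost without WT-p replicates 1 and 3 (-0.27, adjusted p = 0.157). The labels do not say which species or which part of transcobalamin the constructs hold, so whether this probe sees the transgene is not known here. Mmut, the mitochondrial mutase that uses cobalamin, was at 12.31, 12.18, 12.05 and 12.14 in TO-d and 12.17, 12.23, 12.11 and 11.52 in TO-p, against 11.40, 11.54, 11.54 and 11.32 in WT-d and 12.07, 12.11, 11.90 and 12.06 in WT-p. The WT-d samples were below all others but TO-p replicate 4. It fell in differentiated WT cells and had no called response in TO, which made a difference of 0.74 ± 0.15 (adjusted p = 0.000774). The call was kept without WT-p replicates 1 and 3, but not with the median over its probes (probe median 0.68, adjusted p = 0.11). Hcfc1, a transcriptional coregulator needed for MMACHC expression, differed by 0.59 (adjusted p = 0.00116). Mmachc, which processes incoming cobalamin, differed by 0.56 at an adjusted p of 0.0434 that passed the threshold in 13 of 31 other fits. Mtr, methionine synthase, differed by 0.66 and Cd320, the receptor for transcobalamin, by -0.39, and neither passed (adjusted p = 0.102 and 0.0762).

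Among genes with a symbol that were kept and had a sample above background in each group, the widest upward difference was in Sfpq. Sfpq is a splicing factor and core protein of the nuclear bodies called paraspeckles. Its level was 12.11, 12.07, 12.25 and 12.04 in TO-d and 12.64, 12.30, 12.36 and 12.40 in TO-p, against 9.40, 10.36, 10.13 and 9.49 in WT-d and 13.14, 12.52, 13.23 and 12.77 in WT-p. The WT-d samples lay more than 1 log2 unit below every other TO or WT sample, and TO-d lay just below TO-p. The difference of 2.80 ± 0.27, or 6.98-fold, had an adjusted p of 1.04e-06 and came to 2.80 within slide 1 and 1.89 within slide 3. Its probe median was 1.28. Its paraspeckle partner Pspc1 differed by 1.39. In the list of hnRNP and SR splicing factors 25 of 52 genes had a higher response in TO and 2 a lower one, with a median difference of 0.48 against -0.036 over all genes tested. Of the 25, 16 were kept without WT-p replicates 1 and 3. Srsf1, an SR protein that promotes exon inclusion, fell by 0.58 in TO and by 1.94 in WT, a difference of 1.36 ± 0.15. Dhx9, an RNA helicase outside this list, was at 13.14, 12.78, 12.62 and 12.84 in TO-d and 13.04, 12.93, 12.85 and 13.05 in TO-p, against 11.69, 11.78, 11.57 and 11.41 in WT-d and 13.47, 13.37, 13.27 and 13.48 in WT-p. Its 4 WT-d samples were the lowest of the 16, and the difference was 1.74 ± 0.20 (adjusted p = 4.73e-06, probe median 0.88).

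Carriers of RNA and protein through the nuclear pore followed, with 23 of 65 genes higher, 13 of them kept, and 3 lower. Xpo1, the main nuclear export receptor, stood at 11.90, 11.78, 11.59 and 11.73 in TO-d and 12.50, 12.44, 12.36 and 11.96 in TO-p, against 10.92, 11.15, 10.96 and 10.94 in WT-d and 12.68, 12.47, 12.54 and 12.44 in WT-p. The WT-d samples were the lowest of the 16. Xpo1 fell in both lines, by 0.53 in TO and by 1.53 in WT (difference 1.00 ± 0.13, adjusted p = 1.85e-05), with a probe median of 0.29. Kpna2, an importin that carries proteins into the nucleus, and Ddx39a, an export helicase, differed by 1.00 and 1.01. Elavl1, the mRNA-binding protein HuR that the title of the study names, was at 12.16, 12.02, 11.99 and 11.98 in TO-d and 12.26, 12.17, 12.35 and 11.96 in TO-p, against 11.65, 12.11, 11.53 and 11.52 in WT-d and 11.97, 12.21, 11.97 and 12.04 in WT-p. Its difference of 0.19 ± 0.14 did not pass (adjusted p = 0.319), and the media overlapped in both lines. Without WT-d replicate 2 it was 0.32 (adjusted p = 0.0498), and with the median over its probes -0.09. Among other proteins that steer mRNA stability and stress granules, 8 of 41 were higher, 6 of them kept, and 3 lower, all kept, a share near that of all genes. Tial1 and G3bp2, both of stress granules, differed by 1.35 and 0.99 (probe medians 0.61 and 0.66), and Fxr1, a relative of the fragile X protein, by -1.19 (probe median -0.40), having risen in WT alone.

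Enzymes that methylate arginine, and protein phosphatase 2A with its partners, had 11 of 32 genes higher and 5 lower, with 4 and 3 of these kept. The share called was 50%, against 29.5% of all genes, of which 7.6% were higher and kept and 7.7% lower and kept. Wdr77, the partner of the arginine methyltransferase PRMT5, rose in TO by 0.33 and fell in WT by 0.96 (difference 1.28 ± 0.18, adjusted p = 3.7e-05). Prmt6, which methylates histone H3, differed by 1.03, and by 0.68 without WT-p replicates 1 and 3. Set, an inhibitor of the phosphatase, differed by 0.70, and Igbp1, which binds its free catalytic subunit, by -0.79 (probe median -0.02). Ppp2ca, the catalytic subunit, differed by 0.46 (adjusted p = 0.00896) and lost the call without WT-p replicates 1 and 3 (adjusted p = 0.113). The deacetylase Sirt1 fell by 0.84 in TO and by 0.91 in WT, and its difference of 0.07 ± 0.14 did not pass (adjusted p = 0.743). Of other chromatin enzymes, Hdac1 differed by 0.99 and Hdac5, a class IIa deacetylase of neurons, by -0.80.

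**Figure D2:**
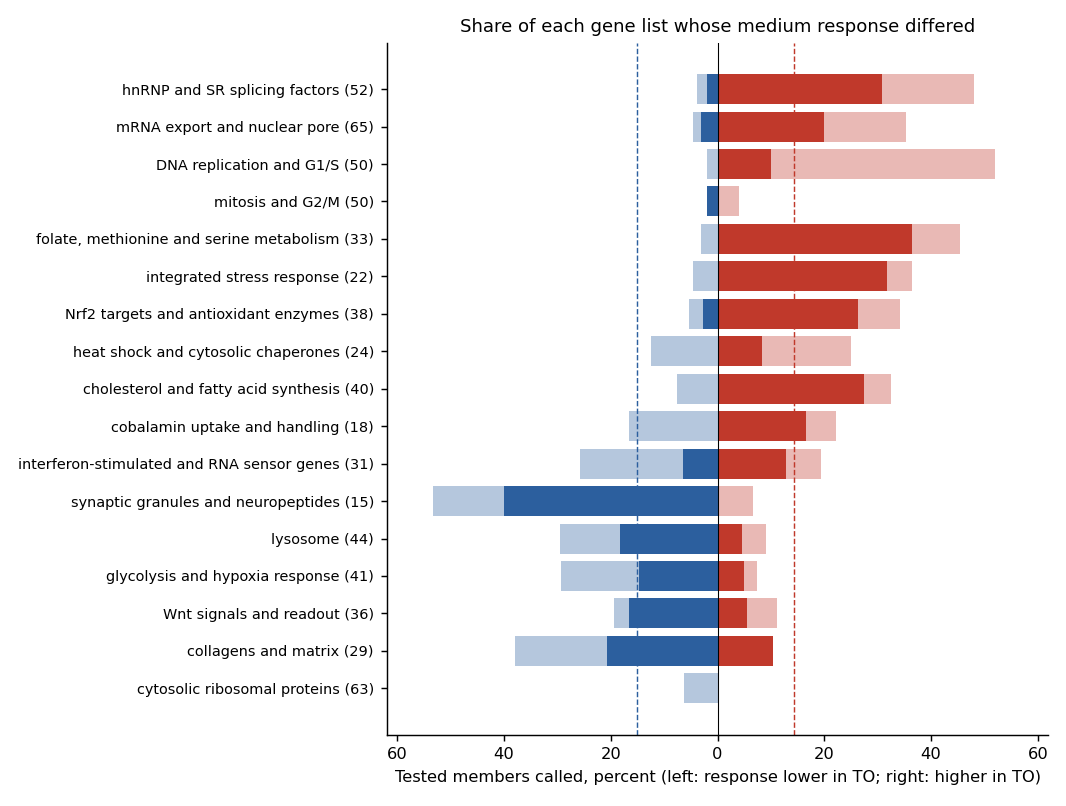
Share of the tested members of each gene list, with the number tested in brackets, whose medium response was higher in TO (red, to the right) or lower (blue, to the left); dark parts are calls kept without WT-p replicates 1 and 3. Dashed lines mark the shares of all genes, 14.4% higher and 15.1% lower; splicing, folate and stress lists extend past the right line, and secretory granules past the left.

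Folate, methionine and serine metabolism had 15 of 33 genes higher, 12 of them kept, and 1 lower, with a median difference of 0.52. Tyms, thymidylate synthase, was at 9.64, 9.81, 10.16 and 9.57 in TO-d and 12.20, 11.95, 12.36 and 11.76 in TO-p, against 8.95, 9.01, 9.28 and 9.07 in WT-d and 13.36, 12.69, 13.67 and 13.33 in WT-p. TO-p lay below WT-p and TO-d above WT-d in every sample, so the fall was smaller from both ends. The difference was 1.94 ± 0.24, 3.83-fold, with an adjusted p of 9.62e-06. Its near-identical pseudogene copy Tyms-ps, whose probe may share signal with it, differed by 1.99. Mthfd1, which makes and uses several forms of tetrahydrofolate in the cytosol, was at 11.61, 11.67, 11.78 and 11.69 in TO-d and 12.05, 12.01, 12.10 and 11.31 in TO-p, against 10.64, 10.53, 10.68 and 10.88 in WT-d and 12.35, 11.93, 12.44 and 12.16 in WT-p. WT-d again held the lowest samples. Mthfd1 had a called fall in WT alone and differed by 1.33 ± 0.21 (adjusted p = 0.000104). Its TO-p samples lay above all TO-d samples except replicate 4, which lay below them. Its TO response was not fitted without that sample. Its mitochondrial relative Mthfd2 differed by 1.14, and Psph, which completes serine synthesis, by 1.17.

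Of 50 DNA replication and G1/S genes, 26 had a higher response in TO and 1 a lower one, and those named here fell in both lines and fell less in TO. Only 5 of the 26 were kept without WT-p replicates 1 and 3, and 14 genes were called higher when TO-p replicate 4 was left out as well. The list's median difference was 0.57, beside a median response of -1.82 in TO and -2.34 in WT. Pola1 is the catalytic subunit of the polymerase that primes replication. It is shown with its promoter because it had the largest difference of the list's kept genes and a match to the E2F site. E2F proteins switch on S-phase genes. The site was searched as TTTGGCGC, TTTGCCGC, TTTCGCGC or TTTCCCGC on both strands of the window from 250 bases before to 50 after the start. It was found in 5.45% of promoters of genes with a higher response in TO, 2.16% of those with a lower one and 3.86% of 10969 promoters in all. The 250 bases before the start of Pola1, at chrX:93632156-93632405 on the minus strand of GRCm38.p6 (RefSeq), read as follows, with the match on the opposite strand 138 bases before the start in capitals.
Pola1: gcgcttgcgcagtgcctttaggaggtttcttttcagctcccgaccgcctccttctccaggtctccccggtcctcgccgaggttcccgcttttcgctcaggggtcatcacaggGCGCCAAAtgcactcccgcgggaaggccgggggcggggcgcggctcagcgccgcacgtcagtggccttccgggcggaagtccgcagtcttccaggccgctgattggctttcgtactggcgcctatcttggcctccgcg
Pola1 was at 9.01, 8.84, 8.86 and 8.93 in TO-d and 11.43, 11.25, 11.41 and 9.40 in TO-p, against 7.99, 8.03, 8.14 and 8.43 in WT-d and 11.86, 11.87, 12.06 and 12.07 in WT-p. TO-p replicate 4 stood more than 1 unit under the other TO-p samples. The difference was 1.79 ± 0.41 (adjusted p = 0.00257), and 1.36 without that sample. The helicase subunits Mcm2 and Mcm3 differed by 1.54 and 1.18, and Rpa1, which coats single-stranded DNA, by 1.03. Ccnd1, the cyclin that opens G1, fell by 0.55 in TO and by 1.94 in WT (difference 1.39 ± 0.17, adjusted p = 7.59e-06), and its partner kinase Cdk4 differed by 0.66.

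Mitosis and G2/M genes had median responses of -3.26 in TO and -3.72 in WT, the lowest of the lists, and 2 of 50 were called higher and 1 lower. Their median difference was 0.60, and 0.19 without TO-p replicate 4, when 6 were called higher. With quantile normalization 18 were called higher. The gene called lower was Ncapd2, a condensin subunit, which fell by 2.56 in TO and by 2.07 in WT (probe median of the difference -0.15).

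Genes of the integrated stress response, the programme driven by ATF4 when amino acids run short or translation is throttled, had 8 of 22 members higher in TO, 7 of them kept, and 1 lower. Atf4 differed by 0.75 ± 0.14 (adjusted p = 0.000533), having fallen by 0.87 in WT with no called response in TO. Its relative Atf5 rose by 0.55 in TO and fell by 0.52 in WT. Slc7a5, which imports large neutral amino acids, and Mars1, methionyl-tRNA synthetase, differed by 0.87 and 0.91. Slc7a11 imports cystine for glutathione and is a textbook target of ATF4, and its promoter is shown because it holds 2 matches to the C/EBP-ATF response element that ATF4 binds, searched as TGATGNAA on both strands. The element was found in 2.78% of promoters of genes with a higher response in TO, 2.68% of those with a lower one and 2.40% of all. The 250 bases before its start, at chr3:50443614-50443863 on the minus strand of GRCm38.p6 (RefSeq), have the matches in capitals, which lie 66 and 47 bases before the start on opposite strands.
Slc7a11: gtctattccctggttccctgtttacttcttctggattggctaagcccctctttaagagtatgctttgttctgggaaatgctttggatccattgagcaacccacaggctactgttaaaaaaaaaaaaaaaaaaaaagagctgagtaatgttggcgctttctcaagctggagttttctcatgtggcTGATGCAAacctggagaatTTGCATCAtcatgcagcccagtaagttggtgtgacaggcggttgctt
Slc7a11 was at 7.26, 7.26, 7.41 and 7.40 in TO-d and 7.24, 7.39, 7.13 and 6.52 in TO-p, against 6.56, 6.54, 6.54 and 6.32 in WT-d and 7.85, 7.97, 7.67 and 7.74 in WT-p. It was not well above background in any WT-d sample, so its fall in WT has only a bound, and WT-p was at least 2.45-fold above WT-d. Here each WT-d sample took the higher of its own level and the lowest level well above background. Plain means of these gave a response 2.93-fold higher in TO. The fitted difference from the measured levels was 1.54, or 2.91-fold (adjusted p = 5.74e-06 by limma). Both sizes rest on WT-d levels near background and hold for the probe shown. The probe median of the difference was 0.71, and with the scanner's processed signals the difference was 4.01.

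Targets of NRF2, the factor that answers oxidative stress, and other antioxidant enzymes had 13 of 38 genes higher in TO, 10 of them kept, and 2 lower. The list's median difference was 0.07, and 0.15 without WT-p replicates 1 and 3. Gclm is the modifier subunit of the enzyme that limits glutathione synthesis. Its promoter is shown for a match to the antioxidant response element, which NRF2 binds, searched as TGACNNNGC on both strands. This short pattern was found in 15.2% of promoters of genes with a higher response in TO, 16.0% of those with a lower one and 14.6% of all. The 250 bases before its start, at chr3:122245307-122245556 on the plus strand of GRCm38.p6 (RefSeq), have the match, on the opposite strand 134 bases before the start, in capitals.
Gclm: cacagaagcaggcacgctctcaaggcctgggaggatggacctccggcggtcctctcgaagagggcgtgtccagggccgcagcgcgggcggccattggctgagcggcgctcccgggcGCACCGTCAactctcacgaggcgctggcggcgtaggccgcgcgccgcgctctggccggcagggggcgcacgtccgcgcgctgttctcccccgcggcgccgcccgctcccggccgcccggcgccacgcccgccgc
Gclm was at 8.58, 8.61, 8.73 and 8.50 in TO-d and 8.68, 8.51, 8.19 and 8.18 in TO-p, against 8.11, 8.26, 7.98 and 7.97 in WT-d and 9.09, 8.82, 8.85 and 8.79 in WT-p. The WT-d samples overlapped with TO-p and lay below all TO-d samples. Gclm fell in WT alone and differed by 0.96 ± 0.14 (adjusted p = 4.66e-05). The call did not stand with loess alone (adjusted p = 0.062). The catalytic subunit Gclc rose by 0.65 in TO and fell by 0.38 in WT, and Pgd, which makes NADPH in the pentose phosphate pathway, rose by 0.44 in TO and fell by 1.16 in WT. Hmox1, which breaks down haem, differed by 0.98 and the peroxiredoxin Prdx1 by 0.48.

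Chaperones moved in both directions. Hsph1, a cytosolic co-chaperone of HSP70, was at 15.03, 14.98, 14.78 and 14.84 in TO-d and 14.34, 14.32, 14.21 and 14.58 in TO-p, against 13.77, 14.00, 13.60 and 13.40 in WT-d and 14.82, 14.11, 14.65 and 14.14 in WT-p. Every TO-d sample was above every TO-p sample, and every WT-d sample below every WT-p sample. It rose in TO and fell in WT (difference 1.34 ± 0.21, adjusted p = 9.35e-05), as did Dnaja1, another co-chaperone (difference 0.63, probe median 1.46). Of 24 heat shock genes 6 were higher, 2 of them kept, and 3 lower, none kept. The share called was 37.5%, against 29.5% of all genes. The 2 kept genes were a share near the 7.6% of all genes that were higher and kept. The unfolded protein response of the endoplasmic reticulum had 7 of 37 genes higher, 3 of them kept, and 4 lower, 2 of them kept, a share like that of all genes. Its co-chaperones Dnajc3 and Dnajb11 and the secreted Manf differed by 0.93, 0.67 and 0.58, while Derl1, which extracts misfolded proteins, differed by -0.82. The probe medians of Dnajc3 and Derl1 were 0.48 and -0.15. Hspa5, the chief chaperone of this compartment, and Ddit3, the stress factor CHOP, differed by 0.21 and -0.28 and did not pass (adjusted p = 0.339 and 0.376).

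Tfrc, the transferrin receptor, was at 9.04, 9.12, 9.18 and 9.09 in TO-d and 8.37, 8.13, 8.19 and 9.19 in TO-p, against 7.96, 8.00, 7.96 and 8.24 in WT-d and 9.40, 8.52, 9.33 and 8.98 in WT-p. Leaving aside TO-p replicate 4, which was as high as TO-d, all TO-d samples were above TO-p, and all WT-d samples were below WT-p. Tfrc rose in TO and fell in WT (difference 1.71 ± 0.26, adjusted p = 8.04e-05), and the difference was 1.91 without TO-p replicate 4. Flvcr1, a haem and choline transporter, was at 10.47, 10.45, 10.65 and 10.45 in TO-d and 10.55, 10.19, 10.46 and 10.25 in TO-p, against 9.28, 9.68, 9.65 and 9.51 in WT-d and 11.29, 10.62, 11.53 and 10.88 in WT-p. WT-d lay below all other groups. Its probe differed by 1.75 ± 0.20 (adjusted p = 5.74e-06), which was not seen with the median over the gene's probes (probe median 0.07, adjusted p = 0.74).

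Cholesterol and fatty acid synthesis had 13 of 40 genes higher in TO, 11 of them kept, and 3 lower, where 14.4% of all genes were higher. The list's median difference was 0.06, and 0.32 without WT-p replicates 1 and 3. With loess alone 3 of its genes were called higher and none lower. Hsd17b7, a reductase of late cholesterol synthesis, was at 11.14, 11.07, 10.62 and 10.92 in TO-d and 11.35, 10.82, 10.55 and 10.62 in TO-p, against 10.32, 10.55, 10.14 and 9.91 in WT-d and 11.45, 11.23, 11.32 and 11.28 in WT-p. The WT-d samples met the lowest TO-p sample and lay below all others, and the difference was 1.19 ± 0.17 (adjusted p = 5.77e-05). Elovl6, which lengthens fatty acids, differed by 0.82, and Acly, which supplies cytosolic acetyl-CoA, by 0.84 (probe median 0.40). All of them fell in WT with no called response in TO.

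Several further genes were turned upward. Rapgef5, an activator of small GTPases of the Rap family, was at 12.51, 12.42, 12.37 and 12.39 in TO-d and 11.94, 11.71, 11.90 and 11.43 in TO-p, against 10.29, 10.68, 10.68 and 10.26 in WT-d and 11.75, 11.89, 11.88 and 11.77 in WT-p. Both proliferation groups overlapped, and the difference of 2.06 ± 0.16 (adjusted p = 8.48e-08) was the widest among named genes that rose in TO and fell in WT. Its probe median was 1.29. Dhrs4, a retinal reductase, Rybp, a component of Polycomb complexes, Klc1, the light chain of the transport motor kinesin, and Slit3, an axon guidance ligand, had the same form, with differences of 1.66, 1.54, 1.51 and 1.34. The probe medians of Rybp and Slit3 were 0.67 and 2.19. Adgrf4, an adhesion receptor, and Ttc13 shared it too, with 1.53 and 1.50. H1f5, a linker histone made in S phase, fell in both lines and less in TO, with a difference of 2.25. Its differentiated groups overlapped (TO less WT -0.14), while TO-p lay below WT-p (-2.39), lowest in replicate 4 at 8.30. Prr9 also fell in both lines and less in TO, but it was well above background in only 1 of 4 TO-d and 2 of 4 WT-d samples, and no size is given. Ap4s1, a subunit of a vesicle adaptor, and Frrs1, a ferric reductase, had called falls in WT alone, with differences of 1.92 and 1.88. For Frrs1 the response in TO was -0.62 (adjusted p = 0.0538), and TO-p replicate 4 lay at 9.44, below the other TO-p and all TO-d samples. Pde4dip, a protein of the Golgi and centrosome, rose in TO alone (1.87, probe median 0.19). Rbks, ribokinase, fell in WT alone and differed by 2.07. Plxna4, a semaphorin receptor, also fell in WT alone and differed by 1.91 ± 0.35 (probe median 0.46), and Mgll, which hydrolyses an endocannabinoid, had responses of -1.62 in TO and -3.67 in WT. Arhgdib and Mkx passed the test too, but neither was well above background in any TO sample, so their differences rest on the WT levels and no size is given.

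**Figure D3:**
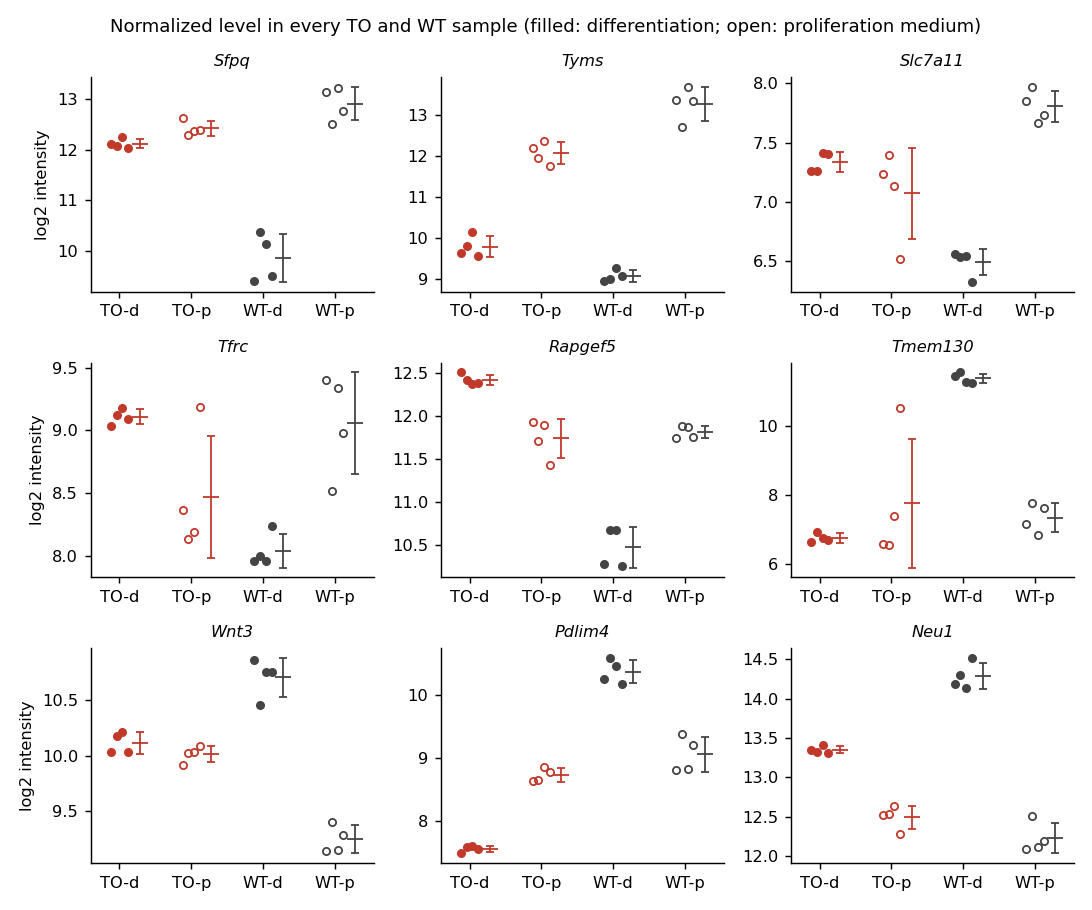
Normalized log2 intensity of 9 genes in each of the 16 samples, by group in the order TO-d, TO-p, WT-d and WT-p; circles are samples, filled for differentiation and open for proliferation medium, and bars the mean ± SD of 4. Sfpq and Rapgef5 are low in WT-d alone, and Tmem130, Wnt3 and Neu1 are highest in WT-d; 1 TO-p sample lies at 10.50 for Tmem130.

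Among genes that met the same conditions as Sfpq, the widest difference was downward, in Tmem130, a transmembrane protein. Its level was 6.62, 6.92, 6.75 and 6.67 in TO-d and 6.58, 6.55, 7.38 and 10.50 in TO-p, against 11.43, 11.55, 11.27 and 11.25 in WT-d and 7.16, 7.75, 6.84 and 7.60 in WT-p. It was high in all WT-d samples and in TO-p replicate 4, and low elsewhere. Of its TO samples 2 in TO-d and 3 in TO-p were well above background, so the size of the difference, and its rank, rest on TO levels near background. The difference was -4.88 ± 0.72 (adjusted p = 6.31e-05), and -4.12 without TO-p replicate 4. Galnt15, which starts O-linked sugar chains, was at 8.63, 8.51, 8.46 and 8.63 in TO-d and 8.45, 8.60, 8.80 and 7.60 in TO-p, against 11.10, 11.15, 10.84 and 10.97 in WT-d and 6.97, 8.73, 7.25 and 7.95 in WT-p. Prss56, a serine protease, was at 9.48, 9.19, 8.89 and 9.55 in TO-d and 8.88, 9.27, 9.35 and 8.42 in TO-p, against 10.99, 10.61, 10.80 and 10.84 in WT-d and 7.43, 8.19, 7.34 and 7.71 in WT-p. Both genes rose in WT to levels above all other samples and had no called response in TO, with differences of -3.17 ± 0.37 and -2.81 ± 0.28 (probe median of Prss56 -1.82). Kdelr3, a receptor that returns proteins to the endoplasmic reticulum, differed by -2.46, and Fn3k, which removes sugars bound to proteins, by -2.67 (probe median -1.36). Zfp773, a zinc finger gene, the noncoding RNA Snhg16 and Rasgef1a, an activator of Ras proteins, rose in WT alone, with differences of -2.67, -2.67 and -2.30. Slc47a1, an exporter of organic cations, and Hhatl rose in both lines and less in TO (-2.38 and -2.18). The probe median of Zfp773 was -1.46. Without WT-p replicates 1 and 3 the differences of Galnt15, Kdelr3, Fn3k, Rasgef1a and Hhatl were -2.49, -1.85, -1.93, -1.61 and -1.45.

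A set of genes rose in WT and fell in TO. Pdlim4, an actin-associated adaptor, was at 7.49, 7.59, 7.60 and 7.56 in TO-d and 8.63, 8.66, 8.86 and 8.78 in TO-p, against 10.26, 10.59, 10.46 and 10.19 in WT-d and 8.82, 9.38, 8.83 and 9.21 in WT-p. The TO-d and WT-d samples lay on either side of both proliferation groups, and the difference of -2.50 ± 0.16 had an adjusted p of 4.53e-09, with a probe median of -1.28. Tubb2b, a neuronal beta-tubulin from a family of closely similar genes, was at 10.98, 12.17, 11.90 and 12.42 in TO-d and 12.90, 13.07, 13.45 and 13.00 in TO-p, against 13.79, 13.38, 13.20 and 14.15 in WT-d and 12.28, 12.41, 12.16 and 12.69 in WT-p (difference -2.49 ± 0.35, adjusted p = 3.58e-05). The media did not overlap in either line. Entpd2, which breaks down extracellular ATP, Foxk1, a forkhead factor, Igfbp2, which binds insulin-like growth factors, and Col18a1, a basement membrane collagen, had the same form, with differences of -2.45, -2.12, -1.59 and -1.53. Cstad and Mpp3, a membrane scaffold, did so too (-1.72 and -1.62).

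In the list of Wnt signals and their readout 7 of 36 genes were lower in TO, 6 of them kept, and 4 higher, 2 of them kept. The share called in either direction was 30.6%, near the 29.5% of all genes, and the median difference was -0.06. Wnt3, a Wnt ligand, was at 10.03, 10.18, 10.22 and 10.04 in TO-d and 9.92, 10.03, 10.04 and 10.09 in TO-p, against 10.86, 10.46, 10.75 and 10.76 in WT-d and 9.15, 9.41, 9.15 and 9.29 in WT-p. TO samples of both media lay between the WT groups, above WT-p and below WT-d, and the difference was -1.36 ± 0.12 (adjusted p = 5.63e-07, probe median -0.86). Wnt11 was at 9.61, 9.82, 9.76 and 9.71 in TO-d and 9.45, 9.50, 9.57 and 10.34 in TO-p, against 10.69, 10.62, 10.52 and 10.50 in WT-d and 8.45, 8.97, 8.42 and 8.82 in WT-p, and differed by -1.88 ± 0.21. Both ligands rose in WT with no called response in TO. The Wnt receptor Fzd7 rose by 1.34 in TO and by 2.56 in WT, while the Wnt target Lgr5 fell by 0.40 in TO and by 1.36 in WT. The probe medians of their differences were -0.58 and 0.42. Of 29 genes of the Id and BMP/TGF-beta feedback list 6 were lower, 3 of them kept, and 2 higher, a share of 27.6% that was also near that of all genes. Bmp7, a bone morphogenetic protein, was at 12.21, 12.29, 12.45 and 12.44 in TO-d and 12.29, 12.79, 12.94 and 12.15 in TO-p, against 13.67, 13.46, 13.56 and 13.86 in WT-d and 11.83, 12.43, 11.92 and 12.15 in WT-p (difference -1.78 ± 0.22). For Wnt11 and Bmp7 the WT-d samples were above all others. Tgfb3, a transforming growth factor, differed by -1.53 and Efna1, an ephrin ligand, by -1.42, and both rose in WT alone.

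Glycolysis and the hypoxia response had 12 of 41 genes lower in TO, 6 of them kept, and 3 higher, with a median difference of -0.41 that was -0.15 without WT-p replicates 1 and 3. Vegfa, the angiogenic factor, was at 12.41, 12.51, 12.40 and 12.47 in TO-d and 12.67, 12.89, 13.20 and 11.87 in TO-p, against 14.22, 13.27, 13.63 and 14.33 in WT-d and 12.02, 12.61, 12.17 and 12.42 in WT-p. The WT-d samples were above all others. It had a called rise in WT alone (difference -1.79 ± 0.34, adjusted p = 0.000527), a call lost with the median over its probes (probe median -0.33, adjusted p = 0.17). Its TO-p samples lay above all TO-d samples except replicate 4, which lay below them. Ndrg1, a stress-responsive gene of differentiating cells, was at 11.14, 11.16, 10.22 and 11.26 in TO-d and 11.25, 10.82, 10.92 and 11.70 in TO-p, against 13.38, 13.60, 13.39 and 13.58 in WT-d and 10.91, 12.22, 10.82 and 12.28 in WT-p. WT-p replicates 1 and 3 were more than 1 unit below replicates 2 and 4 here, and without them the difference of -2.21 ± 0.43 became -1.42. The neuronal enolase Eno2 differed by -1.58, and by -0.73 without those samples. P4ha1, which hydroxylates collagen, differed by -1.29.

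Secretory granule genes had a median response of 0.43 in TO and 1.04 in WT, and lysosomal genes 0.23 in TO and 0.39 in WT. Among synaptic granule and neuropeptide genes 8 of 15 were lower, 6 of them kept, and 1 higher, with a median difference of -0.54 that was -0.29 without WT-p replicates 1 and 3. Resp18, a protein of dense-core granules, was at 14.11, 14.04, 14.03 and 14.29 in TO-d and 12.21, 12.39, 12.38 and 12.29 in TO-p, against 14.34, 14.09, 14.36 and 14.63 in WT-d and 11.38, 11.96, 11.29 and 11.79 in WT-p. The TO-p samples were all above WT-p, while the differentiated groups overlapped (difference -0.94 ± 0.18, adjusted p = 0.000526). The prohormone convertase Pcsk2, the carboxypeptidase Cpe and the convertase inhibitor Pcsk1n, which process neuropeptides, differed by -0.79, -0.71 and -0.67. The probe median of Pcsk2 was -0.32, and Cpe differed by -0.40 without WT-p replicates 1 and 3. Among lysosomal genes 13 of 44 were lower, 8 of them kept, and 4 higher. Neu1, the sialidase, was at 13.35, 13.33, 13.41 and 13.31 in TO-d and 12.53, 12.53, 12.64 and 12.29 in TO-p, against 14.19, 14.30, 14.13 and 14.51 in WT-d and 12.10, 12.51, 12.12 and 12.20 in WT-p. The differentiated groups did not overlap, and the rise was 0.83 in TO and 2.07 in WT (difference -1.24 ± 0.15, adjusted p = 8.12e-06). The lysosomal protease Ctsb differed by -0.95 (probe median -0.58).

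Of 29 collagen and matrix genes 11 were lower, 6 of them kept, and 3 higher. The protease inhibitors Timp1 and Timp2 differed by -1.10 and -1.02, and Sparc, a matrix glycoprotein, by -0.92. The probe median of Timp1 was -0.61. Cytoskeletal lists were called on both sides, with 12 of 47 integrin and actin-binding genes higher and 10 lower (7 and 4 kept), and 11 of 48 genes of the neuronal cytoskeleton and synapse higher and 10 lower (7 and 5 kept). The shares called in these lists were 46.8% and 43.8%, against 29.5% of all genes. A few genes of the cytoskeletal lists fell in TO with no called response in WT. Tubb4a, another neuronal beta-tubulin, fell by 1.31 in TO (difference -1.38 ± 0.17). Tpm2, a tropomyosin, and Myl9, a myosin light chain, fell by 1.06 and 1.75 in TO, with differences of -1.46 and -1.36. The intermediate filament Vim fell by 2.19 in TO and by 1.23 in WT (difference -0.96, probe median -0.48). The heavy neurofilament Nefh went the other way, falling by 1.57 in TO and by 2.78 in WT (difference 1.21).

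Other lists had calls on both sides. Interferon-stimulated genes and RNA sensors had 6 of 31 genes higher, 4 of them kept, and 8 lower, 2 of them kept. The share called was 45.2%, against 29.5% of all genes, of which 7.6% were higher and kept and 7.7% lower and kept. Mx2, an antiviral GTPase, was at 10.62, 10.59, 10.23 and 10.57 in TO-d and 8.87, 8.89, 9.20 and 9.85 in TO-p, against 10.63, 10.60, 10.61 and 10.44 in WT-d and 7.56, 8.37, 7.53 and 7.92 in WT-p (difference -1.41 ± 0.26). The differentiated groups overlapped, while every TO-p sample was above every WT-p sample. Isg15, a ubiquitin-like modifier, was at 10.60, 10.98, 10.96 and 10.95 in TO-d and 9.29, 9.19, 9.49 and 8.65 in TO-p, against 10.32, 10.50, 10.91 and 10.31 in WT-d and 9.55, 10.64, 9.49 and 10.32 in WT-p (difference 1.15 ± 0.34, adjusted p = 0.0135). WT-p replicates 1 and 3 were the lowest WT samples, and without them the difference was 1.72. The array's coordinates place this probe on chromosome 17 of the mm8 genome, and whether it reads Isg15 itself was not checked. The RNA sensor Ifih1 and the chaperone Rtp4 differed by 0.92 and 0.71 (probe median of Ifih1 0.49), and the call of Rtp4 (adjusted p = 0.0446) stood in 16 of 31 other fits. Sesn1, a p53 target, rose by 0.44 in TO and by 1.44 in WT, and Bax, an effector of apoptosis, differed by 0.90. Of 36 immediate early and ERK feedback genes 9 were lower, 6 of them kept, and 4 higher, all kept, a share called of 36.1%. Klf10, a factor induced by TGF-beta, rose in WT alone, by 1.19, and Fos fell in TO alone, by 0.64. Of 14 neuroblastoma markers 1 was lower and none higher. Th, tyrosine hydroxylase of that list, rose by 0.29 in TO and by 0.28 in WT, with an adjusted p of 0.987 for the difference. Insm1, a factor of sympathoadrenal precursors, differed by 1.11. Of 63 ribosomal protein genes 4 were lower and none higher (40 and none with the scanner's processed signals), and of 50 genes of oxidative phosphorylation 3 were higher and 3 lower. The last counts moved with scaling, to 17 higher and 4 lower with the authors' value table, 13 and 5 with quantile normalization, and 5 and 9 with processed signals, and were 9 and 3 without TO-p replicate 4.

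**Figure D4:**
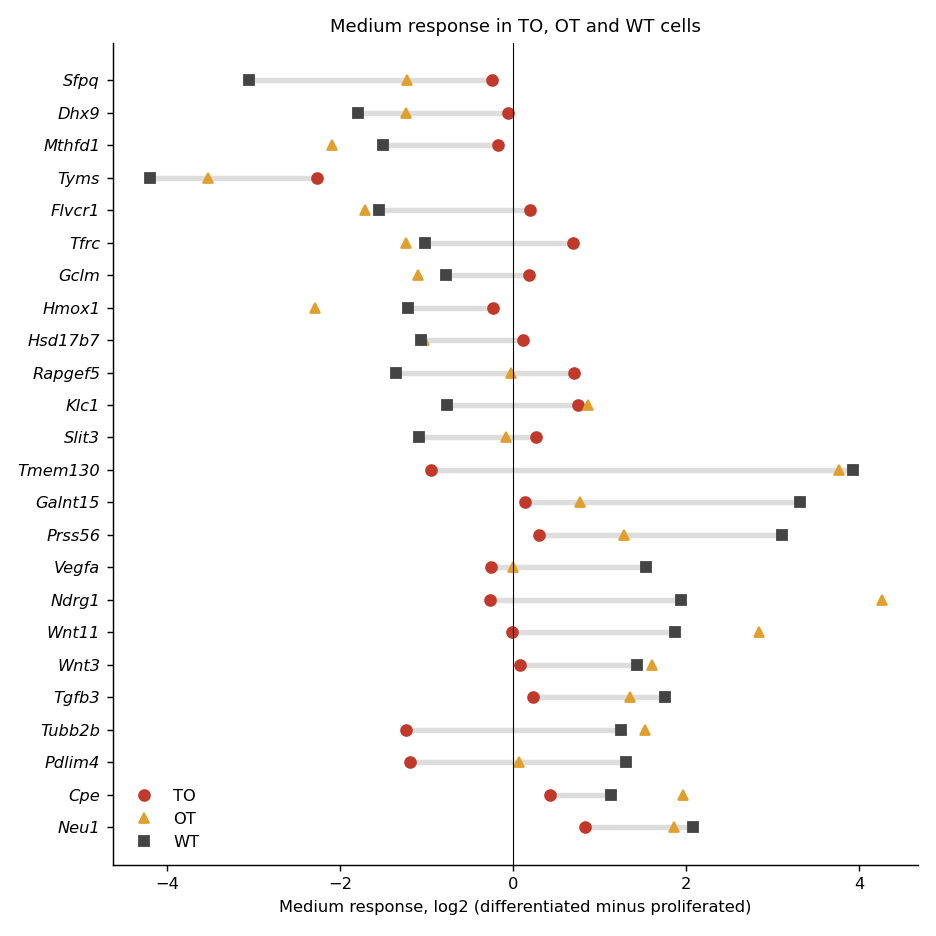
Fitted medium response, as a log2 difference, of 24 genes in TO (circles), OT (triangles) and WT (squares) cells; grey bars join TO and WT. OT lies close to WT for Tmem130, Wnt3 and Flvcr1, close to TO for Klc1, Vegfa and Galnt15, and beyond WT for Ndrg1.

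The OT fusion gives the same contrast for a construct with no detectable cobalamin binding, and since OT and TO were set against the same WT samples their differences from WT are given side by side, while the test between them is that of the TO response less the OT response. That test passed for 5510 genes (33.9%), and the OT response differed from WT in 4010 (24.7%). Tmem130 differed from WT by -4.88 in TO and by -0.16 in OT, and TO less OT was -4.72 (adjusted p = 3.97e-05). Tfrc differed from WT by 1.71 in TO and by -0.21 in OT (TO less OT 1.92, adjusted p = 9.18e-06), and Wnt11 by -1.88 in TO and 0.98 in OT (TO less OT -2.86, adjusted p = 1.36e-08). Mthfd1, Gclm and Wnt3 had OT differences of -0.59, -0.33 and 0.17, and each differed between TO and OT (TO less OT 1.92, 1.29 and -1.53). For Ndrg1 the constructs lay on opposite sides of WT, with -2.21 in TO and 2.32 in OT (TO less OT -4.53, adjusted p = 1.84e-07). Sfpq shared its direction, with 2.80 in TO and 1.83 in OT, and still differed between them (TO less OT 0.97, adjusted p = 0.0077). For Klc1, Galnt15 and Vegfa the OT difference from WT was 1.63, -2.54 and -1.54, and the TO and OT responses did not differ past the threshold (adjusted p = 0.654, 0.197 and 0.603). Among the lists, 26 of 41 genes of glycolysis and hypoxia, 20 of 38 of the antioxidant list and 10 of 50 of mitosis differed between TO and OT, against 33.9% of all genes.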

How the data were processed

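The authors deposited 12 scanner files of 2-colour Agilent arrays, per the file headers read with Feature Extraction 10.5.1.1, and the intensity of each spot in these deposited files is not normalized. Per the labels' protocols, 0.2 µg of RNA was labelled for each sample, with 2 samples an array and each group split evenly over the dyes. Mean and background intensities were corrected with normexp (offset 50), 1639 control spots were removed, and channels were scaled by loess and then Aquantile with limma 3.58.1 in R 4.3.3. The brightest probe stood for a gene, and 16240 genes were tested, each clearly over background in every sample of some group. The fit held 6 group means and a dye term, with the array as a block (correlation 0.264), over all 24 samples, which share 1 estimate of spread. Calls used an adjusted p (Benjamini-Hochberg over all genes tested) under 0.05. The script was tested on simulated data with the same spread in every sample. These data held no sample that stood apart, no split group and no shared label number, so the test does not bear on those limits of the calls.

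Named genes were the 15 largest differences each way that were called, held without WT-p replicates 1 and 3 and had a sample above background in each group, the 8 largest of opposite response each way, up to 4 such genes of each list, and fixed genes such as Tcn2 and Elavl1. Members and lists were chosen with earlier results of these data known. Alternatives were the scanner's processed signals, the authors' value table, quantile normalization, loess alone, the filter on dim genes, the median over probes, the dye, slide and replicate terms, averaged samples of one label number, the 16 samples alone, sample weights and each sample left out. Replicate numbers did not pair the samples. A few genes are not reported here.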

Additional observations from a re-analysis of the deposited data

Results flagged for a closer look

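The response to the medium differed between TO and WT by the test of the difference itself in 2339 genes upward and 2459 downward, as the report describes. Single samples far from the other 3 of their group were looked for in 508 groups of 4, and 39 had one, while chance gives about 1 in 20. They numbered 12 in TO-d and 12 in TO-p, against 9 in WT-d and 6 in WT-p.

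TO-p replicate 4 held 11 of them, and its root mean square deviation of 0.386 stood apart from the other TO-p samples. It was low for Mtr (7.93), Mmut (11.52), Pola1 (9.4), Mthfd1 (11.31), Ddit3 (12.14), Fos (8.31), Prr9 (6.64), Frrs1 (9.44) and Mpp3 (9.81) and high for Wnt11 (10.34) and Tpm2 (10.69). TO-p replicate 1 stood apart for Plxna4 at 10.68. TO-d replicate 3 did so for Ccnd1 (10.98), Hspa5 (15.04), Flvcr1 (10.65), Rbks (9.84), Ndrg1 (10.22), Tgfb3 (11.42), Pcsk2 (11.37), Mx2 (10.23) and Frrs1 (10.23). TO-d replicate 1 did so for Prr9 (5.75), Tubb4a (12.38) and Isg15 (10.6).

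In WT-d, replicate 1 stood apart for Rbks (7.83) and replicate 2 for Dnajb11 (12.77), Xpo1 (11.15) and Set (12.32). WT-d replicate 3 stood apart for P4ha1 (12.54), and replicate 4 for Mcm3 (10.23), Slc7a11 (6.32), Tfrc (8.24) and Mx2 (10.44). In WT-p, replicate 1 stood apart for Psph (14.49) and Gclc (11.42), replicate 2 for Derl1 (12.84), G3bp2 (12.12) and Slit3 (12.11), and replicate 3 for Manf (13.07).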

How the results depend on the processing

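Of 121 called genes named with values, 92 kept call and direction in all 31 other fits. Most of these genes were chosen for a call kept without WT-p replicates 1 and 3, a fit among the 31, so this share was partly set by the choice. The counts of calls, 2339 higher and 2459 lower, became 1109 and 612 with loess alone, 1546 and 1595 with samples of one label number averaged, and 1328 and 1292 without WT-p replicates 1 and 3. With processed signals 3764 were lower and 2887 higher, with the median difference over all genes at -0.127. Leaving out 1 sample at a time gave 1891 to 2750 higher and 1911 to 2970 lower. The causes were not tested. The replicate block gave 2272 and 2435, with 4583 of the calls kept, and 4 of 24 same-numbered pairs had correlated deviations over 0.1 (range -0.407 to 0.271), so the numbers do not pair the samples.

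Among the 128 genes named with values, signs turned only for those at or near no difference and for Mmachc and Ppp2ca within slide 3 (-0.042 and -0.008), a comparison of 1 sample a group. Ddit3 was 0.007 with averaged samples, 0.085 without WT-p replicates 1 and 3 and 0.15 within slide 3. Elavl1 was -0.09 with the median over probes and -0.084 within slide 3. Sirt1 was -0.007 averaged, -0.101 without WT-p replicates 1 and 3, -0.092 without TO-p replicate 4 as well (a setting chosen after seeing the data), -0.099 and -0.378 within slides 1 and 3, and between -0.007 and 0.157 when 1 sample was left out. Th was -0.009 with the authors' value table, -0.003 with quantile normalization, -0.021 with loess alone, -0.012 within slide 3 and between -0.066 and 0.066 when 1 sample was left out (0.172 without WT-p replicates 1 and 3 and TO-p replicate 4). Leaving out TO-p replicate 4 as well as WT-p replicates 1 and 3 took Ddx39a to 0.59, Mthfd2 to 0.72, Rpa1 to 0.62, Fzd7 to -0.78, P4ha1 to -0.85 and Mx2 to -0.90. Elavl1 passed the test in 1 fit, Cd320 in 6, Mtr, Hspa5 and Ddit3 in 2 each. For array data the number of arrays limits precision, and genes not well above background in a group have only a bound.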
